A study of Mus musculus with 21 samples.

Results

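Mouse bone-marrow-derived macrophages (BMDMs) that received dimethyl malonate (DMM) for 3 h and then lipopolysaccharide (LPS) for 48 h were compared with BMDMs that received LPS for 48 h without DMM. The comparison rests on 3 of the 21 libraries of the series, grouped by their labels: DMM then LPS replicates 1 and 2, and LPS replicate 2. LPS 48 h replicate 1 was left out because its LPS-induced transcripts lay at the level of unstimulated cells, with Saa3 at 33.8 CPM and Il1b at 0.89 CPM in that library. The other groups used were DMM then LPS for 4 h (2 libraries), LPS for 4 h (2), and succinate for 3 h and then LPS for 48 h (1). Without LPS there were DMM for 3 h (4) and untreated cells (3). Count labels of the groups without LPS give no hours, so these libraries were pooled by treatment. Their sample labels include letters, as at 4 h, and digits, as at 48 h. They were therefore not matched to either time of LPS. Every group came from C57bl/6 mice aged 12 weeks, with marrow grown for 6 days in L929-conditioned medium, a source of the growth factor M-CSF. The sources used here give no doses and do not say whether replicates were separate cultures or mice. The p-values therefore measure only the spread between these libraries, which may be technical.

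DMM is an ester that enters cells and releases malonate, a competitive inhibitor of succinate dehydrogenase, the enzyme shared by the tricarboxylic acid (TCA) cycle and the respiratory chain. In LPS-activated macrophages succinate accumulates, and its oxidation by this enzyme drives reactive oxygen production at complex I and stabilises HIF-1alpha, a transcription factor that acts on the gene of interleukin-1 beta. LPS signals through the receptor TLR4 and induces cytokines, chemokines, proteases and the enzyme that makes itaconate, another inhibitor of succinate dehydrogenase. Inhibition of the enzyme before LPS is known for lower interleukin-1 beta.

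Total counts were 996916 and 1496873 in the DMM then LPS libraries and 1292873 in the LPS library, within a range of 662186 to 1546867 over the series. Values are CPM, the reads of a gene scaled to a common total over the tested genes, with library sizes adjusted by the trimmed mean of M values (TMM). The TMM factors were 1.26 and 0.72 in the DMM then LPS libraries and 0.81 in the LPS library, so the DMM libraries needed unlike scaling. The ferritin gene Fth1 alone took 12.4% and 10.5% of all counts in the DMM then LPS libraries and 6.70% in the LPS library. Genes of cytosolic ribosomal proteins took 0.79% and 1.22% in the DMM then LPS libraries and 1.58% in the LPS library. The macrophage markers Lyz2 (66274 and 100437 CPM against 85708 CPM) and Emr1 (7892 and 19428 CPM against 21161 CPM) were abundant in the DMM then LPS libraries and in the LPS library. Of 16 neutrophil markers, 9 had no count in any of the 3 libraries, Ly6g, Elane and Mpo among them, while the summed level of the 16 was 2296 and 5996 CPM in the DMM then LPS libraries and 5632 CPM in the LPS library. Mmp9 is in that list, and its part was not tested. The summed levels of the T, B, NK, dendritic, stromal, erythroid and mast cell lists ran from 0 to 23.5 CPM in the DMM then LPS libraries and from 0 to 9.65 CPM in the LPS library.

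After 48 h of LPS, DMM-pretreated macrophages held less of a set of LPS-induced transcripts, led by the protease inhibitor gene Serpinb2, the fatty acid receptor Gpr84, the oxysterol enzyme Ch25h, the gelatinase Mmp9 and the cytokine Il1b. They held more of a smaller set that included the scavenger protein Cd5l, the lipid receptor Trem2, the growth factor Igf1 and the inducible nitric oxide synthase Nos2. Of 6812 genes tested, 55 (0.807%) passed the test, at an adjusted p under 0.05 in edgeR's quasi-likelihood test, Benjamini-Hochberg (BH) adjusted across every gene tested. Of these, 10 rose (0.147% of genes tested) and 45 fell (0.661%), Il1b among the 45 though given below as a description only. In all 55 both DMM libraries lay on the same side of the LPS library. Over all genes tested, both DMM libraries lay above the LPS library in 33.5% and below it in 36.4%. A called gene tends to have both on 1 side, so this agreement is a description. The LPS 48 h arm holds 1 library, so its spread was taken from that within the other groups. Counted by library totals without scaling factors, 72 genes were called, 21 higher and 51 lower, and the median of all genes shifted to 0.25 on the log2 scale, from 0.01 with TMM. The calls rest on leaving out LPS 48 h replicate 1, a choice made on measured levels, those of Saa3 and Il1b among them, and not on its label. With that library included 62 genes were called, of which 8 were among the 55, and of 32 named genes 4 kept their call (Mxd1, Rpl3, Ccl9 and Rpl10a). Serpinb2 was then at -3.03 (adjusted p = 0.337) and Cd5l at 0.41 (adjusted p = 0.847), while Trem2 at -2.53 and Igf1 at -0.61 changed sign. In bulk RNA, fewer cells with a transcript and less of it per cell cannot be told apart.

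**Figure D1:**
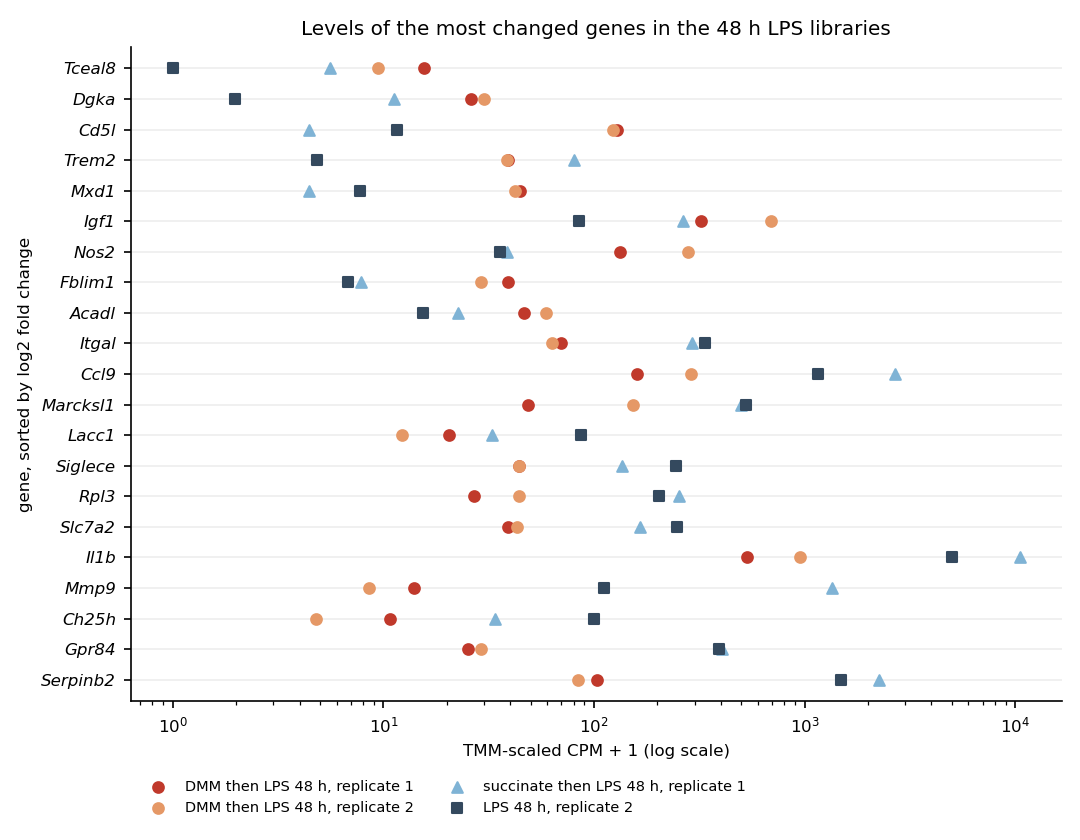
Level of each gene (TMM-scaled CPM + 1, log axis) in the 4 stimulated 48 h libraries, for called genes toward either end of the range of log2 fold changes. Circles are the DMM then LPS libraries, triangles the succinate then LPS library and squares the LPS library. In every row both circles lie on the same side of the square, as the choice of these genes required.

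Serpinb2, which encodes plasminogen activator inhibitor type 2, had the lowest adjusted p. It stood at 102 and 82.7 CPM in the DMM then LPS libraries and at 1495 CPM in the LPS library. Both DMM libraries lay far below the LPS library, by -4.01 ± 0.50 on the log2 scale (fold change ± SE; adjusted p = 3.84e-05). The matrix protease gene Mmp9 had 16 and 8 counts in the DMM then LPS libraries against 114 counts (110.0 CPM) in the LPS library, and it fell by 3.40 ± 0.50 (adjusted p = 0.000221). The membrane-bound protease gene Mmp14, whose product activates other proteases, had 60.7 and 61.1 CPM in the DMM then LPS libraries against 266 CPM in the LPS library. Its DMM libraries nearly coincided, and it fell by 2.13 ± 0.40 (adjusted p = 0.00468). Of 15 tested genes of matrix proteases and their inhibitors, these 3 were lower and 0 higher. Among those not called was Spp1, the gene of the matrix protein osteopontin, with 27292 and 53387 CPM in the DMM then LPS libraries against 10009 CPM in the LPS library (2.01 ± 0.87, adjusted p = 0.307). Reads of Serpinb2 and Serpinb10 cannot be told apart where their exons overlap.

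Il1b, the gene of interleukin-1 beta, had 531 and 949 CPM in the DMM then LPS libraries against 4983 CPM in the LPS library. Both DMM libraries were lower, and the fold change was -2.75 ± 0.53. It is given as a description with no test, because the level of Il1b helped decide which LPS library was left out. With that library included it was -1.78 (adjusted p = 0.654). Of the 13 tested genes of the interleukin-1 axis and the inflammasome, Il1b among them, no gene other than Il1b was called. Il1rn, which encodes the antagonist of the interleukin-1 receptor, had 437 and 936 CPM in the DMM then LPS libraries against 263 CPM in the LPS library, and its difference of 1.38 ± 0.43 did not pass the test (adjusted p = 0.123). The interleukin-18 binding protein gene Il18bp had 47.8 and 41.3 CPM in the DMM then LPS libraries against 13.5 CPM in the LPS library (1.72 ± 0.50, adjusted p = 0.0989). For the inflammasome sensor gene Nlrp3 the levels were 19.4 and 14.1 CPM in the DMM then LPS libraries against 35.7 CPM in the LPS library (-1.08 ± 0.40, adjusted p = 0.217). Casp1, the protease that matures interleukin-1 beta, had 41.3 and 54.5 CPM in the DMM then LPS libraries against 65.6 CPM in the LPS library (-0.46 ± 0.37, adjusted p = 0.614). Il1a had only 11 and 1 counts in the DMM then LPS libraries and 14 in the LPS library (-1.38 ± 0.85, adjusted p = 0.503), and its DMM libraries were unlike. An antisense gene, Il1bos, overlaps Il1b, and strand of counting is not stated.

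Gpr84, a receptor for medium-chain fatty acids, had 24.3 and 28.2 CPM in the DMM then LPS libraries against 389.9 CPM in the LPS library. The DMM libraries lay close together and far below it, by -3.89 ± 0.50 (adjusted p = 0.000111). Other receptor genes that fell are named here with their values in view, while of 21 tested genes of LPS sensing 0 were called. Fpr1, which senses formyl peptides of bacteria, had 211 and 429 CPM in the DMM then LPS libraries against 1299 CPM in the LPS library (-2.02 ± 0.44, adjusted p = 0.0157). The anaphylatoxin receptor gene C5ar1 had 480 and 685 CPM in the DMM then LPS libraries against 1781 CPM in the LPS library (-1.61 ± 0.39, adjusted p = 0.0399). The scavenger receptor gene Marco had 151 and 148 CPM in the DMM then LPS libraries against 574 CPM in the LPS library (-1.94 ± 0.38, adjusted p = 0.00592). For each of these receptors both DMM libraries were below the LPS library, with replicate 1 the lower of the pair for Gpr84, Fpr1 and C5ar1. Siglece, an inhibitory lectin that binds sialic acid, had 42.9 and 43.2 CPM in the DMM then LPS libraries against 244 CPM in the LPS library (-2.50 ± 0.38, adjusted p = 0.00025). The sialic acid receptor Siglec1 and the lectin Cd302 were lower as well, by -1.86 ± 0.43 and -1.73 ± 0.42. The adhesion receptor subunit gene Itgal had 68.8 and 62.0 CPM in the DMM then LPS libraries against 334 CPM in the LPS library (-2.35 ± 0.37, adjusted p = 0.00035). Icam1, which encodes a ligand of the integrin that holds this subunit, had 78.6 and 91.1 CPM in the DMM then LPS libraries against 257 CPM in the LPS library (-1.60 ± 0.33, adjusted p = 0.0119).

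The chemokine gene Ccl9 had 159 and 287 CPM in the DMM then LPS libraries against 1160.1 CPM in the LPS library, and it fell by 2.38 ± 0.44 (adjusted p = 0.00314). Ccl7, a chemokine for monocytes, had 132 and 195 CPM in the DMM then LPS libraries against 779.9 CPM in the LPS library, and it fell by 2.25 ± 0.39 (adjusted p = 0.0015). These 2 of 15 tested chemokine genes passed the test, both lower. In 12 of the 15 both DMM libraries lay below the LPS library, against 36.4% of all genes tested. Ccl12 (-1.58 ± 0.43, adjusted p = 0.0734) and Cxcl2 (-1.79 ± 0.49, adjusted p = 0.0763) missed the threshold narrowly. Ccl5, the most abundant chemokine transcript, had 15564 and 25803 CPM in the DMM then LPS libraries against 14966 CPM in the LPS library (0.47 ± 0.54, adjusted p = 0.765). Not all chemokine transcripts were therefore below the LPS library.

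Ch25h, an enzyme that makes an oxysterol from cholesterol, had 9.72 and 3.76 CPM in the DMM then LPS libraries against 99.4 CPM in the LPS library (-3.82 ± 0.79, adjusted p = 0.0399). The arginine transporter gene Slc7a2 had 38.1 and 42.3 CPM in the DMM then LPS libraries against 246 CPM in the LPS library (-2.61 ± 0.38, adjusted p = 0.000221). Of the 12 tested genes of succinate dehydrogenase, succinate handling and itaconate, 1 was called. It was Slc13a3, a sodium-coupled transporter of dicarboxylates such as succinate, with 12.1 and 23.5 CPM in the DMM then LPS libraries against 70.5 CPM in the LPS library (-2.00 ± 0.46, adjusted p = 0.034). The subunits of the enzyme that malonate inhibits did not pass the test. Sdha had 101 and 87.4 CPM in the DMM then LPS libraries against 152 CPM in the LPS library (-0.69 ± 0.33, adjusted p = 0.356), and Sdhb had 134 and 168 CPM against 186 CPM (-0.30 ± 0.33, adjusted p = 0.743).

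Of 11 tested genes of nucleoside and NAD metabolism, 3 fell. Upp1, which splits uridine, had 30.0 and 37.6 CPM in the DMM then LPS libraries against 148 CPM in the LPS library (-2.13 ± 0.41, adjusted p = 0.00594). Pnp, which splits purine nucleosides, had 47.8 and 67.6 CPM in the DMM then LPS libraries against 202 CPM in the LPS library (-1.81 ± 0.31, adjusted p = 0.00105), with counts that may be shared with its near-identical neighbour Pnp2. The NAD kinase gene Nadk, whose product makes NADP, had 163 and 165 CPM in the DMM then LPS libraries against 523 CPM in the LPS library (-1.67 ± 0.36, adjusted p = 0.0157). In each of the 3 both DMM libraries lay below the LPS library. Lacc1, an enzyme of purine metabolism in macrophages, had 19.4 and 11.3 CPM in the DMM then LPS libraries against 85.9 CPM in the LPS library (-2.46 ± 0.41, adjusted p = 0.000966). The lysosomal hexose transporter Slc2a6, the amino acid transporter Slc7a8 and the sterol-binding protein Stard5 were lower by -1.94 ± 0.36, -1.41 ± 0.35 and -1.43 ± 0.35.

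Genes of the cytoskeleton and of membrane traffic were also among those lower, named here after their values were seen. The actin-regulating protein gene Marcksl1 had 47.8 and 152 CPM in the DMM then LPS libraries against 525 CPM in the LPS library (-2.40 ± 0.52, adjusted p = 0.0259). Replicate 2 was well above replicate 1, yet both were lower than the LPS library. Vasp, which promotes actin filament growth, was at -2.13 ± 0.46, the endosomal recycling protein gene Ehd1 at -1.61 ± 0.39, the small GTPase gene Rab32 at -1.89 ± 0.33 and the gap junction protein gene Gja1 at -1.68 ± 0.40. Cotl1, which binds actin filaments, was at -1.47 ± 0.36. Actg1, the gene of a cytoplasmic actin, was at -1.83 ± 0.44, but its counts can be shared with processed copies. The remaining genes called lower were Cdk2ap2, Igsf6, Tbc1d13, Tma16, Tor1aip1, Gng12, Rnaset2b, Evi2a, 3110003A17Rik, Gm14150 and Rpl3-ps1, from -1.23 to -2.88, of which Rnaset2b, Evi2a, Gm14150 and Rpl3-ps1 have near-identical copies.

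All 78 tested genes of cytosolic ribosomal proteins had negative log2 fold changes at 48 h, and 2 of them passed the test. Over all 6812 genes tested, 3361 were negative and 0.661% were called lower. Both DMM libraries lay below the LPS library in 55 of the 78, against 36.4% of all genes tested. Rpl3 had 25.9 and 43.2 CPM in the DMM then LPS libraries against 202 CPM in the LPS library (-2.55 ± 0.39, adjusted p = 0.00025), and Rpl10a had 6.48 and 9.39 CPM against 36.7 CPM (-2.21 ± 0.48, adjusted p = 0.0159). Both have processed copies with which reads may be shared. The median of the 78 was -0.79, beside 0.01 over all genes tested. The DMM libraries were far apart in this list: its median ratio to the LPS library was -1.68 in replicate 1 and -0.21 in replicate 2. The share of each library's counts in this list, given above, was lower in both DMM libraries, and lowest in replicate 1. With 1 LPS library and unlike DMM libraries, whether this share moved with the group cannot be decided. Its part in the other results was not tested.

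Of the genes that rose, Cd5l and Trem2 had the closest DMM libraries. Cd5l, a protein that macrophages secrete and that binds the scavenger receptor CD36, had 128 and 122 CPM in the DMM then LPS libraries against 10.6 CPM in the LPS library. Both were higher, by 3.54 ± 0.53 on the log2 scale (adjusted p = 0.000236). Trem2, a receptor for lipids and lipoproteins, had 38.1 and 37.6 CPM in the DMM then LPS libraries against 3.86 CPM in the LPS library, which held 4 counts of it (3.25 ± 0.63, adjusted p = 0.00491). Igf1, the gene of insulin-like growth factor 1, had 322 and 694 CPM in the DMM then LPS libraries against 84.0 CPM in the LPS library (2.59 ± 0.55, adjusted p = 0.0132). Of 27 tested genes of macrophage identity, Cd5l and Trem2 were called higher and Marco lower. Most of the list lay the other way from Cd5l and Trem2, with 21 of 27 negative and a median of -0.48. Both DMM libraries lay below the LPS library in 16 of the 27 and above it in 5, against 36.4% and 33.5% of all genes tested.

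Nos2, which makes nitric oxide from arginine, had 132 and 277 CPM in the DMM then LPS libraries against 34.7 CPM in the LPS library (2.55 ± 0.47, adjusted p = 0.00483). Replicate 2 was the higher of the DMM pair, and both lay above the LPS library. Arg1, the arginase that uses the same amino acid, had 119 and 395 CPM in the DMM then LPS libraries against 46.3 CPM in the LPS library, and its difference of 2.47 ± 0.62 fell just short of the threshold (adjusted p = 0.0518). Of 13 tested genes of arginine and nitric oxide metabolism, Nos2 was thus the 1 called higher and the transporter Slc7a2 the 1 called lower.

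Acadl, a dehydrogenase of mitochondrial fatty acid oxidation, had 45.4 and 58.2 CPM in the DMM then LPS libraries against 14.5 CPM in the LPS library (1.83 ± 0.45, adjusted p = 0.0416). Mxd1, a repressor that competes with Myc for its partner Max, had 43.7 and 41.3 CPM in the DMM then LPS libraries against 6.76 CPM in the LPS library (2.63 ± 0.62, adjusted p = 0.0333). Fblim1, which links filamin to cell adhesions, had 38.1 and 28.2 CPM in the DMM then LPS libraries against 5.79 CPM in the LPS library (2.50 ± 0.60, adjusted p = 0.0399). Dgka and Tceal8 rested on 1 and 0 counts in the LPS library. Dgka, a diacylglycerol kinase, had 31 and 31 counts in the DMM then LPS libraries against 1 count in the LPS library, a ratio of 27.9 scaled by library size (95% counting interval 4.83 to 1121; adjusted p = 0.00492). Its exons overlap those of Pmel on the other strand. Tceal8 had 18 and 9 counts in the DMM then LPS libraries and 0 in the LPS library, and was at least 4.06-fold higher, taking 3 counts as the floor of that arm (adjusted p = 0.0385). No molecular identifiers were used, so this interval and the floor cover counting error only.

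Called genes with a RefSeq promoter and more than 3 counts in each arm were ranked by log2 fold change. The promoters of the 2 lowest and the 2 highest are shown. They are RefSeq promoters of build GRCm38.p6, from 250 bases before to 50 bases after the start site, 5′ to 3′ on the strand of the gene. Serpinb2 lies at chr1:107511173-107511472 on the plus strand, Gpr84 at chr15:103310389-103310688 on the minus strand, Cd5l at chr3:87357631-87357930 on the plus strand and Trem2 at chr17:48346151-48346450 on the plus strand. Capitals mark matches on either strand to an AP-1 motif (TGANTCA) and to a C/EBP motif (TTGCNNAA), factors that act at many macrophage promoters.
Serpinb2: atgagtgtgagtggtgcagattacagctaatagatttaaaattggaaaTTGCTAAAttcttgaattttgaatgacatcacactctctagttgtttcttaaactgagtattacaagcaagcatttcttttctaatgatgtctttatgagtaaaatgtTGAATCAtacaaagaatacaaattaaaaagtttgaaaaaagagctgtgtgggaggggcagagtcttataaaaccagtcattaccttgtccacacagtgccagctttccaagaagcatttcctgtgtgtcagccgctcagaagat
Gpr84: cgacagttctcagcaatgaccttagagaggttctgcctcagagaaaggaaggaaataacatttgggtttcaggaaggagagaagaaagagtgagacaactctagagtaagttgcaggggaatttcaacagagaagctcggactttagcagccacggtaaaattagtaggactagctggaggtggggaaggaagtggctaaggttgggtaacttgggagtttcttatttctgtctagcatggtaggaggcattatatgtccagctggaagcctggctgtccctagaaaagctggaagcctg
Cd5l: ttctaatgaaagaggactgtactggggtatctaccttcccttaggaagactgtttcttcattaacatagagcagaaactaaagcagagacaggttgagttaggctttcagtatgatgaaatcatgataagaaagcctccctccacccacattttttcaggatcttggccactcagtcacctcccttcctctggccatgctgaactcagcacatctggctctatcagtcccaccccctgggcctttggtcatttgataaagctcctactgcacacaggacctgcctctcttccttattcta
Trem2: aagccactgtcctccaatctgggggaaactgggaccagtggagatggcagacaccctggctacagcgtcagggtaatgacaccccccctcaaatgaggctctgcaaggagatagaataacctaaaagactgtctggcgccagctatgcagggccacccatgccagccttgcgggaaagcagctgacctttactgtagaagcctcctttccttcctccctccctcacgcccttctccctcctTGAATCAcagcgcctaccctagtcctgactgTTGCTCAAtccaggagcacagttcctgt
Relative to the RefSeq start, the AP-1 match of Serpinb2 begins 94 bases and its C/EBP match 202 bases before, and in Trem2 the AP-1 match begins 9 bases before and the C/EBP match 22 bases after. For Serpinb2 and Trem2 the bases that follow the RefSeq start are not in the longest transcript of the reference annotation, so these distances hold for the RefSeq start alone, while for Gpr84 and Cd5l they are in it. Gpr84 and Cd5l hold neither in this window, and no AP-1 match overlaps a C/EBP match in the 4 sequences. Of the genes called lower, 33 had a RefSeq promoter, and 5 of these held the AP-1 motif and 6 the C/EBP motif. Among 8 genes called higher with a promoter, 3 held the AP-1 motif and 1 the C/EBP motif. Over 27025 genes the shares were 8.97% and 12.2%. A motif of the NF-kB kind was in 10 of the 33 and 2 of the 8, beside 22.9% of all genes, and an interferon-stimulated response element in 0 of the 33 and 0 of the 8, beside 3.99%. The core of the hypoxia response element (ACGTG) was in 10 of the 33 and 3 of the 8, beside 21.8% of all genes. The TATA letters (TATAAA), not in capitals here, were in 6 of the 33 and 1 of the 8, beside 15.7%. These matches are descriptions of letters and not of binding.

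Several genes known as markers of LPS activation did not pass the test. Tnf had 98.0 and 114 CPM in the DMM then LPS libraries against 263 CPM in the LPS library, both lower, by -1.31 ± 0.33 (adjusted p = 0.0518). Irg1, which makes itaconate, had 4162 and 7632 CPM in the DMM then LPS libraries against 10224 CPM in the LPS library (-0.79 ± 0.53, adjusted p = 0.542). Ptges, a prostaglandin E synthase, had 524 and 749 CPM in the DMM then LPS libraries against 1342 CPM in the LPS library (-1.08 ± 0.44, adjusted p = 0.269). In these 3 genes replicate 1 was the lower of the DMM libraries and both lay below the LPS library. For Ptgs2, the inducible cyclooxygenase, the DMM libraries lay on both sides of the LPS library, with 38.9 and 58.2 CPM against 50.2 CPM (-0.05 ± 0.38, adjusted p = 0.973). Cxcl10 (-0.16 ± 0.50) had DMM libraries on both sides too. So did Saa3 (0.05 ± 0.64). It is a description with no test, because the level of Saa3 helped decide which LPS library was left out. Saa3 was abundant in all 3 libraries, with 69683 and 124675 CPM in the DMM then LPS libraries against 94181 CPM in the LPS library. Hif1a had 147 and 360 CPM in the DMM then LPS libraries against 377 CPM in the LPS library (-0.58 ± 0.43, adjusted p = 0.581), and the glucose transporter Slc2a1 had 76.1 and 77.0 CPM against 103 CPM (-0.43 ± 0.32, adjusted p = 0.573).

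Across the gene lists, calls were few and most medians lay below that of all genes (0.01). For comparison, 0.147% of all genes tested were called higher and 0.661% lower. Both DMM libraries lay below the LPS library in 36.4% of all genes tested. Of 11 pro-inflammatory mediators 1 was called higher (Nos2), with a median of -0.55 for the list. Il1b, the 1 counted lower, is a description only, as its level helped decide which library was left out. Of 42 tested genes of the type I interferon response 0 were called, with a median of -0.37 and both DMM libraries below the LPS library in 22. Among response and identity lists with at least 5 tested genes, the lowest medians were those of acute-phase and antimicrobial genes, -1.26 with 2 of 11 lower (Marco and Fpr1), and of chemokines, -0.89. Genes of the complement system had a median of -0.87 with 1 of 11 lower (C5ar1). Members that missed the threshold by little included the chaperone gene Hspa5 (-1.64 ± 0.42, adjusted p = 0.0534) and the haptoglobin gene Hp (-1.73 ± 0.45, adjusted p = 0.0534). In the unfolded protein response, where Hspa5 belongs, 19 of 22 genes had both DMM libraries below the LPS library, with a median of -0.66 and 0 called.

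Calls were absent from the core metabolic lists. Of 19 glycolysis genes 0 were called, with a median of -0.43. Both DMM libraries lay below the LPS library in 12 of the 19, against 36.4% of all genes tested. Ldha, which makes lactate, had 3187 and 6198 CPM in the DMM then LPS libraries against 7485 CPM in the LPS library (-0.67 ± 0.46, adjusted p = 0.544). Of 23 TCA cycle genes 0 were called, with a median of -0.14 under TMM, beside 0.01 over all genes, and of 0.06 without scaling factors, beside 0.25 over all genes. The list lay below the median of all genes under both. The isocitrate dehydrogenase genes stood apart in both directions without passing the test. Idh1, the cytosolic enzyme, had 146 and 189 CPM in the DMM then LPS libraries against 458 CPM in the LPS library (-1.45 ± 0.42, adjusted p = 0.0928), and Idh2, the mitochondrial one, had 30.8 and 17.8 CPM against 8.69 CPM (1.49 ± 0.50, adjusted p = 0.177). Of 67 nuclear genes of oxidative phosphorylation 0 were called, with a median of -0.49, and of 13 mitochondrially encoded transcripts 0, with a median of -0.72. The DMM libraries were unlike in these lists and in glycolysis. Median log2 ratios to the LPS library in replicates 1 and 2 were -0.99 and -0.16 for oxidative phosphorylation. They were -1.18 and -0.19 for mitochondrially encoded transcripts and -0.79 and -0.07 for glycolysis. The negative medians therefore rest mostly on replicate 1. Among the same lists, the highest medians were those of MHC class II and co-stimulation (0.83, 0 of 11 called), apoptosis and survival (0.62, 0 of 18 called) and HIF-1 targets outside glycolysis (0.45, 0 of 13 called). Cd40, a co-stimulatory receptor, had 20.2 and 16.9 CPM in the DMM then LPS libraries against 7.72 CPM in the LPS library (1.26 ± 0.56, adjusted p = 0.314). The p53 antagonist gene Mdm2 had 187 and 302 CPM in the DMM then LPS libraries against 122 CPM in the LPS library (1.00 ± 0.35, adjusted p = 0.195).

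**Figure D2:**
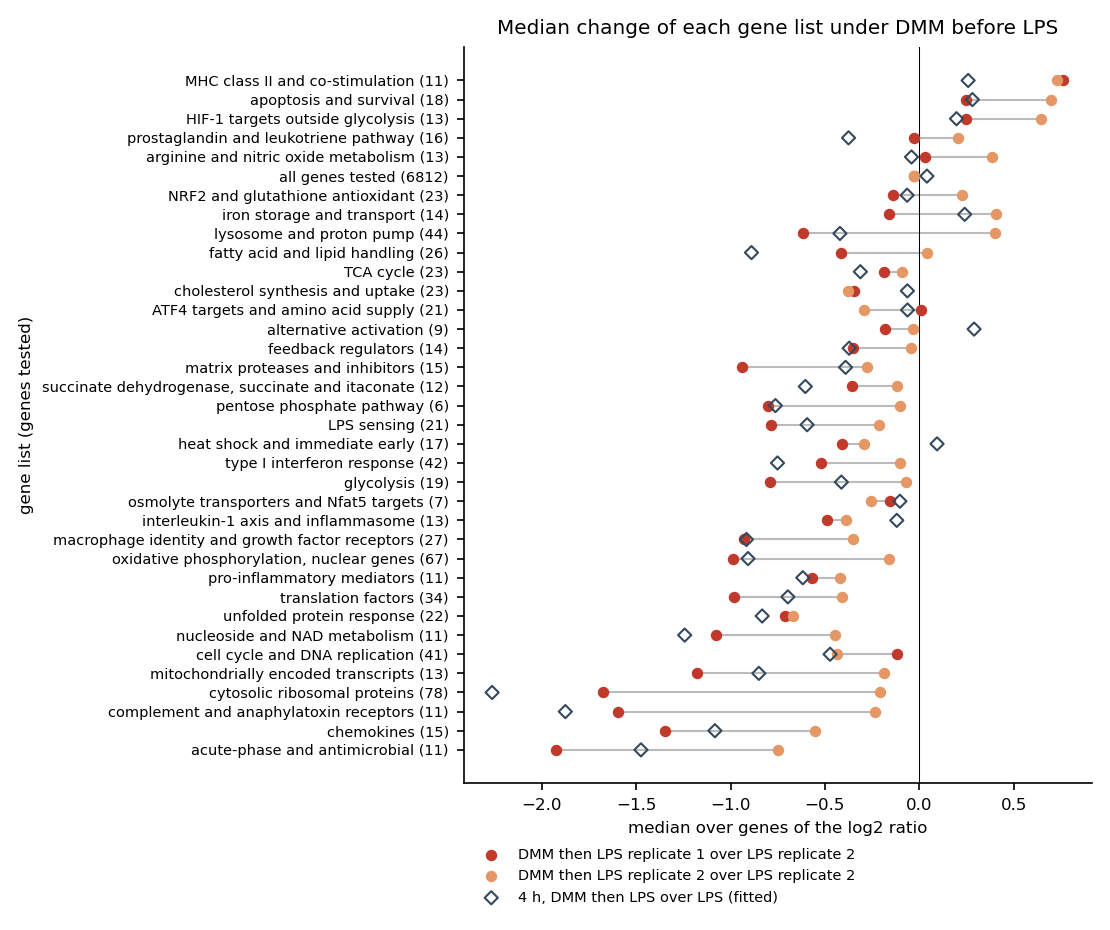
Median log2 ratio over the tested genes of each list (number in brackets), for lists with at least 5 tested genes. Filled circles are the DMM then LPS replicates one by one over the LPS library at 48 h, as log2 ratios of CPM + 1, and open diamonds the fitted log2 fold change at 4 h. In the ribosomal, complement and acute-phase lists replicate 1 lies well to the left of replicate 2.

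The same comparison at 4 h used other libraries throughout. It came from the same fit, in which both times share the estimate of each gene's spread, so the calls are not independent. Of the 45 genes lower at 48 h, all 45 had a negative log2 fold change at 4 h and 43 were called lower there (95.6% of the 45, and 6.01% of the 715 genes lower at 4 h). Over all genes tested, 956 were called at 4 h (14.0%), 47.9% were negative and 10.5% were called lower. The split at 4 h was 241 higher and 715 lower with TMM, and 477 higher and 400 lower without scaling factors. Of the 10 genes higher at 48 h, all 10 were positive at 4 h and 6 were called higher there (60% of the 10, and 2.49% of the 241 higher at 4 h). Over all genes tested, 52.0% were positive at 4 h and 3.54% were called higher. The median of the 45 was -2.02 at 48 h and -2.36 at 4 h, and that of the 10 was 2.61 at 48 h and 1.53 at 4 h. The 2 genes lower at 48 h that were not called at 4 h were Il1b and Stard5.

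Il1b at 4 h had 3466 and 6029 CPM in the DMM then LPS libraries against 6530 and 9244 CPM in the LPS libraries. All 4 libraries were high, the DMM pair lay below the LPS pair without overlap, and the fold change of -0.73 ± 0.45 did not pass the test (adjusted p = 0.294). Its difference between 48 h and 4 h was -2.02, given as a description since it rests on the same choice of library. Serpinb2 at 4 h had 270 and 431 CPM in the DMM then LPS libraries against 3816 and 4265 CPM in the LPS libraries, a fold change of -3.53 ± 0.45, close to that at 48 h. Marco had 29.2 and 33.4 CPM in the DMM then LPS libraries against 498 and 548 CPM in the LPS libraries at 4 h (-4.06 ± 0.38, against -1.94 ± 0.38 at 48 h). For Slc13a3 the 4 h levels were 1.69 and 2.79 CPM in the DMM then LPS libraries against 72.5 and 77.5 CPM in the LPS libraries (-5.07 ± 0.53, against -2.00 ± 0.46 at 48 h). The differences of Marco (2.12, adjusted p = 0.5) and Slc13a3 (3.08, adjusted p = 0.5) did not pass the test.

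Cd5l at 4 h had 44.4 and 28.8 CPM in the DMM then LPS libraries against 13.9 and 7.53 CPM in the LPS libraries (1.78 ± 0.41, against 3.54 ± 0.53 at 48 h). Igf1 at 4 h had 166 and 199.6 CPM in the DMM then LPS libraries against 111 and 91.4 CPM in the LPS libraries (0.85 ± 0.40, adjusted p = 0.154). Arg1 was called higher at 4 h, with 1529 and 2732 CPM in the DMM then LPS libraries against 293 and 404 CPM in the LPS libraries (2.61 ± 0.45, adjusted p = 0.000211). So was Ptgs2, with 194 and 231 CPM in the DMM then LPS libraries against 76.8 and 78.5 CPM in the LPS libraries (1.45 ± 0.29, adjusted p = 0.000816). Ribosomal protein genes had a median of -2.26 at 4 h, with 71 of 78 called lower, against -0.79 at 48 h with 2 called. Over all 6812 genes the test of the difference between the times called 0 genes (0%), with 357 at an unadjusted p under 0.05, and DESeq2 called 1. Its smallest adjusted p was 0.164, for the interferon-inducible gene Ifi205.

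**Figure D3:**
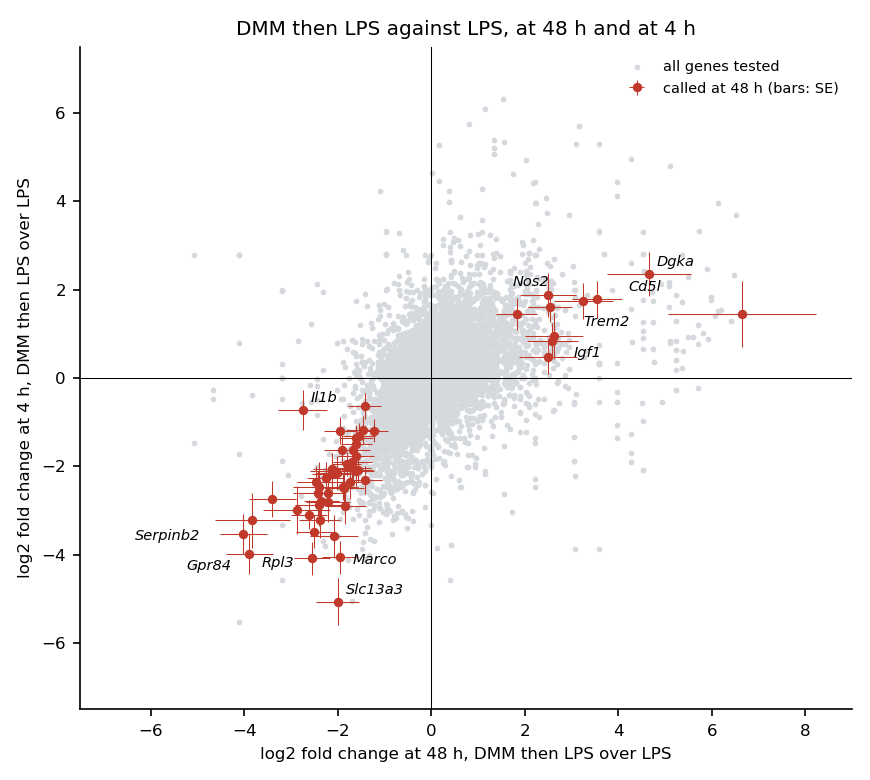
Log2 fold change of DMM then LPS over LPS at 48 h (horizontal axis) and at 4 h (vertical axis) for every gene tested, in grey, and for the genes called at 48 h, in red with bars of 1 SE. The red points lie in the lower left and upper right quadrants, with Il1b at -2.75 at 48 h and -0.73 at 4 h.

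Levels in the succinate then LPS library at 48 h give a further view of the same genes, though this comparison shares the DMM libraries with the one above. Succinate is the substrate that DMM keeps from oxidation. Il1b had 10498 CPM there, above the LPS library, and DMM then LPS was lower than succinate then LPS by -3.83. For Il1b this too is a description with no test, because its level helped decide which library was left out. Mmp9 had 1341 CPM in the succinate then LPS library, more than in any of the other 3 stimulated 48 h libraries. Serpinb2 had 2262 CPM, Gpr84 405 CPM, Ccl9 2671 CPM and Marco 842 CPM, each above both DMM libraries. Some genes went the other way or lay between. Ccl7 was at 9.09 CPM in the succinate then LPS library, below both DMM libraries, and Slc13a3 was at 18.2 CPM, between them. Trem2 was at 79.6 CPM, above both DMM libraries, while Cd5l was at 3.41 CPM and Nos2 at 37.5 CPM, below them. Of 6812 genes, 263 (3.86%) differed between DMM then LPS and succinate then LPS, 52 higher (0.763%) and 211 lower (3.10%), or 87 higher and 149 lower without scaling factors.

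Without LPS, DMM against untreated cells gave 38 called genes of 6812 (0.558%), 22 higher (0.323%) and 16 lower (0.235%), and 0 of the 55 genes were among them. Of the 45 lower at 48 h under LPS, 19 had a negative log2 fold change with DMM alone, and of the 10 higher, 7 had a positive one. Several of the genes that fell were near 0 in untreated cells. Serpinb2 was at 1.01 to 5.10 CPM in the 3 untreated libraries, Il1b at 3.03 to 3.52 CPM and Marco at 0 to 1.17 CPM. In 39 of the 45 (86.7%) all untreated libraries lay below both LPS 4 h libraries, against 26.9% of all genes tested. In 30 of the 45 (66.7%) both DMM then LPS 48 h libraries lay above all untreated libraries, against 25.9% of all genes. Exceptions included Ccl9, Rpl3 and C5ar1, which untreated cells held at 852 to 1042 CPM, 484 to 535 CPM and 1149.5 to 1278 CPM, above both DMM then LPS libraries.

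Of the 10 genes that rose, 6 (60%) had all untreated libraries above both LPS 4 h libraries, against 26.2% of all genes tested. Trem2 was at 656 to 807 CPM in untreated cells, far above all 3 libraries compared at 48 h. Cd5l was at 121 to 191 CPM in untreated cells, a range that holds both DMM then LPS libraries. Igf1 was at 886 to 1135 CPM, above both DMM then LPS libraries. Nos2, in contrast, had no count in untreated cells. A gene called lower tends to lie high in LPS libraries and one called higher low in them, so these counts are descriptions.

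**Figure D4:**
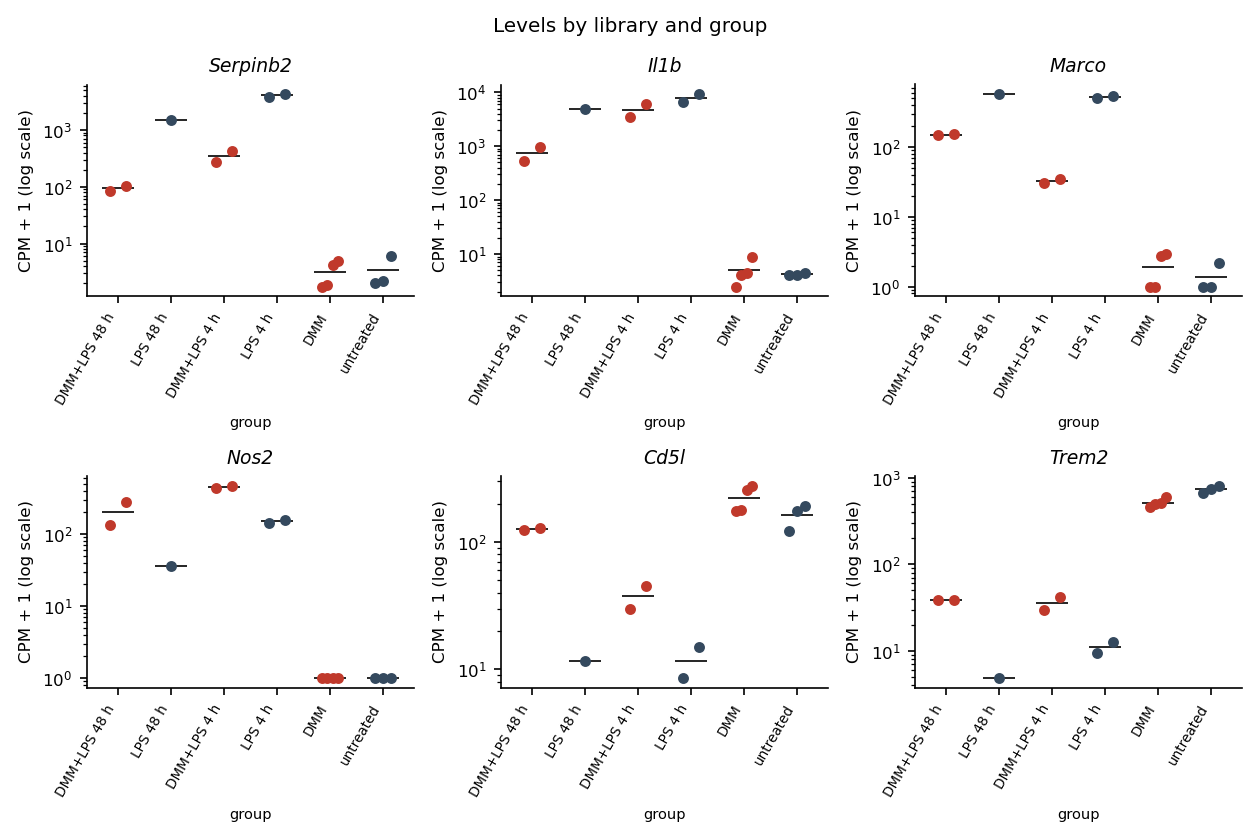
Level (CPM + 1, log axis) of 6 genes in every library of 6 groups, with DMM groups in red, groups without DMM in dark blue and a bar at each group's mean. Serpinb2, Il1b and Marco are near 0 without LPS, Cd5l and Trem2 are high without LPS, and Nos2 has no count without LPS.

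Taken one by one, the DMM libraries were unlike in how many genes differed from the LPS library. Of 4417 genes of sufficient level, 1093 (24.7%) differed more than 2-fold between DMM then LPS replicate 1 and the LPS library, and 578 (13.1%) between replicate 2 and the LPS library. Between DMM then LPS replicates 1 and 2 themselves, 719 (16.3%) differed more than 2-fold, 541 of them higher in replicate 2. At 4 h the DMM then LPS pair differed so in 3.92% and the LPS pair in 5.93% of the same genes. Fitted with replicate 1 as the lone DMM library, 337 genes were called (42 higher, 295 lower). With replicate 2 alone, 35 were called (14 higher, 21 lower). The 24 genes called in both fits were 7.12% of the replicate 1 calls and 68.6% of the replicate 2 calls.

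Among the 55 genes, replicate 1 lay farther from the LPS library in 42 and replicate 2 in 13. Over the 45 lower genes the median log2 ratio of CPM + 1 to the LPS library was -2.16 in replicate 1 and -1.75 in replicate 2, and over the 10 higher genes it was 2.53 in replicate 1 and 2.97 in replicate 2. Il1b was at -3.23 in replicate 1 and -2.39 in replicate 2, Ccl9 at -2.86 and -2.01, and Fpr1 at -2.62 and -1.60. Ch25h and Mmp9 went the other way, at -3.23 and -2.99 in replicate 1 and at -4.40 and -3.70 in replicate 2. Igf1 and Nos2 were farther from the LPS library in replicate 2. With replicate 2 as the lone DMM library 20 of the 32 named genes that were called kept their call. Among the 12 that did not were Tceal8, Mxd1, Fblim1, Acadl, Ch25h, Marcksl1, Slc13a3, C5ar1, Fpr1, Rpl10a and Upp1. With replicate 1 alone 31 of 32 kept it, Ch25h being the exception.

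**Figure D5:**
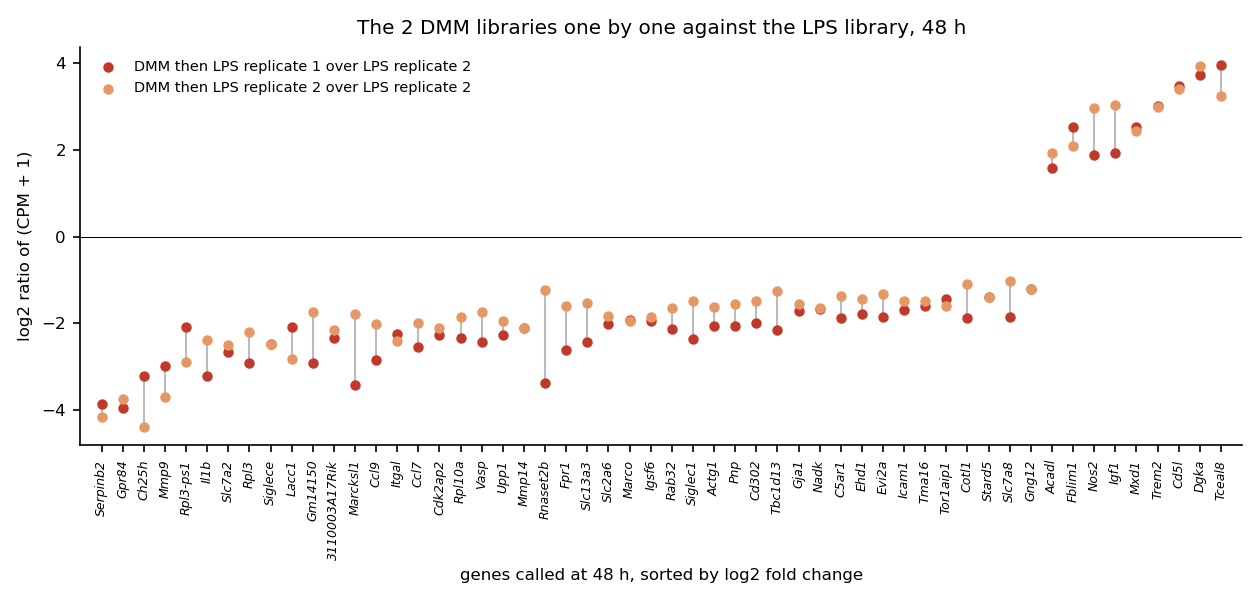
Log2 ratio of CPM + 1 to the LPS library for DMM then LPS replicate 1 (dark red) and replicate 2 (orange), for the genes called at 48 h other than 1 not reported here, sorted by fitted log2 fold change. A grey line joins the replicates of a gene; both points lie on the same side of 0 for every gene shown, and the longest lines among lower genes belong to Rnaset2b and Marcksl1.

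The genes that separated the DMM libraries most were other genes than these. Slc34a2, a sodium-phosphate cotransporter gene, had 39 counts in replicate 1 and 1 in replicate 2, against 3 in the LPS library. Ppp1r8, a regulator of protein phosphatase 1, had 93 counts in replicate 1 and 8 in replicate 2, against 8 in the LPS library, and Cit, a kinase of cell division, had 36 and 4 against 1. Eefsec, Apeh and Mlec were also higher in replicate 1. The genes highest in replicate 2 relative to replicate 1 carried predicted or clone names or were short RNAs, Gm11669, Gm14303, Mir5109, A330044P14Rik, Gm10076 and RP23-83I13.14, with 25 to 102 counts in replicate 2 and 2 to 15 in replicate 1. These are descriptions of single libraries with no test.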

How the data were processed

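Full-length cDNA libraries were sequenced from bulk RNA of 21 mouse macrophage samples. The authors deposited 1 table of whole-number read counts per gene, and per the submitters' processing notes used TopHat2, Bowtie, HTSeq and edgeR. Versions, genome build, annotation and strand of counting are not stated there. Genes were tested with edgeR 4.0.16 in R 4.3.3 (TMM factors, robust quasi-likelihood fit, BH threshold 0.05), in 1 model of 9 groups and 20 libraries with 11 residual degrees of freedom. LPS 48 h replicate 1 was left out. Kept were 6812 of 34573 genes with at least 10 reads, scaled to the median library, in 2 libraries and 15 in total, which held at least 98.2% of each library's counts. Levels are CPM of the tested genes' totals times the TMM factor. Ratios of single libraries used a pseudocount of 1 CPM.

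Named genes include the 12 lowest called genes and all 10 called higher. The rule for these required annotated names, at least 10 CPM in the higher arm and both DMM libraries on the same side. Added were up to 3 called genes of each of 43 gene lists and a panel of 13 genes. Counts include 1 called gene that is not reported here. Other called genes and uncalled list members were picked with their values in view. The members and lists were chosen with earlier results of these data known. Near-identical copies and overlaps were read from a reference annotation, which need not be that of the authors. The fit was tested on simulated counts. Alternatives were DESeq2 1.42.0, other scaling, no filter, other sets of libraries, each library left out and a replicate block.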

Additional observations from a re-analysis of the deposited data

How the results depend on the processing

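The 55 genes called at 48 h became 108 with DESeq2 (37 shared), 107 with no filter on low counts and 90 with LPS-stimulated libraries only. Leaving out 1 DMM library gave 35 (without replicate 1) to 337 (without replicate 2). Leaving out LPS 48 h replicate 2 was not possible, since it is the only library of that arm. Of the 32 named called genes, 32 kept their call with median-of-ratios factors, 30 with no filter, 29 with library totals only (a scaling added after seeing the data), and 22 of 22 with a DESeq2 adjusted p kept theirs. With all 21 libraries, LPS 48 h replicate 1 included, 62 genes were called, 8 of them shared, 4 of the 32 named genes kept their call, and Trem2 (-2.53) and Igf1 (-0.61) changed sign. That setting called 456 genes at 4 h, 61 against succinate then LPS, and 0 for DMM without LPS (edgeR, 574 at an unadjusted p under 0.05), where no filter gave 121.

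The difference between 48 h and 4 h had 0 calls in edgeR, 1 with DESeq2, 6 with no filter, 3 with LPS-stimulated libraries only, 1 with library totals only, and 0 to 25 when a library was left out (25 without DMM then LPS 48 h replicate 1). Leaving out a library gave 279 (without DMM then LPS replicate A) to 614 calls at 4 h, and 125 (without DMM then LPS 48 h replicate 1) to 611 (without replicate 2) against succinate then LPS. The causes were not tested.

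Whether shared replicate numbers mark a shared source is not stated. Deviations of same-numbered libraries correlated at 0.00042 at 4 h and 0.19 at 48 h over 2 pairs each, the 48 h value with LPS 48 h replicate 1 included. With a replicate block in the stimulated libraries, 197 genes were called at 48 h and 305 for the difference between times. With the block and LPS 48 h replicate 1 included, 0 were called at 48 h (edgeR, 522 at an unadjusted p under 0.05), and signs changed for Trem2 (-0.81), Serpinb2 (0.17), Il1b (2.29), Slc7a2 (0.015), Siglece (0.099), Marcksl1 (0.073), Ccl7 (1.48), Mmp14 (0.76), Marco (1.57), Fpr1 (1.97) and Upp1 (0.42). Depth limits genes with few counts, such as Tceal8, Dgka and Il1a.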
